A study of Mus musculus with 12 samples.

Results

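The genes described here are the solute carriers that were expressed in these libraries, that is, every gene whose symbol is Slc followed by a digit and that reached at least 10 CPM (counts per 1000000) in at least 1 of the 12 libraries. A CPM here is the number of unique molecular identifiers (UMIs, each standing for 1 captured transcript) of a gene per 1000000 UMIs, summed over the barcodes of a library with 200 or more genes and no more than 10% of UMIs from mitochondrial genes. Of 375 Slc genes listed among 31054 features, 194 met this rule and 181 did not. The threshold used expression levels in every library, so that a member is expressed somewhere is not a result. The members nearest to the threshold were Slc27a3 at 10.1 CPM in naive microglia and Slc29a2 at 10.2 CPM in astrocytes, and the nearest genes below it were Slc35d2 at 9.86 CPM and Slc36a3os at 9.50 CPM.

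Solute carriers are membrane proteins that move small molecules across a membrane, some by letting the solute run down its own gradient and others by coupling it to sodium, protons or a counter-solute. They set which sugars, amino acids, ions, metals and vitamins enter or leave a cell, and a large branch of them works in the membranes of mitochondria, lysosomes and the Golgi apparatus. In the brain, microglia are known for the fructose carrier Slc2a5, astrocytes for the glutamate carriers Slc1a2 and Slc1a3 that clear transmitter from synapses, and macrophages in general for the metal carriers Slc11a1 and Slc40a1 that handle iron taken up with debris and red cells.

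Brain cells were profiled by droplet single-cell RNA sequencing from 4 C57BL/6J mice conditioned with busulfan and given male donor hematopoietic stem and progenitor cells carrying a lentiviral GFP vector (LVV.GFP), 1 female and 1 male dosed intravenously (i.v.) and 1 female and 1 male dosed into the cerebral ventricles (i.c.v.). From each mouse, CD45+ CD11b+ CX3CR1+ cells were sorted into GFP+ microglia-like cells (MLCs) and GFP- endogenous microglia, which made 8 libraries, 2 for each route and sort. All 4 mice also received total bone marrow that had not been transduced, so the GFP- sort can hold donor cells without GFP. The other 4 libraries, 1 each, held microglia, astrocytes, a neuron sort and blood mononuclear cells from untreated C57BL/6J tissue, which the study's account gives as that of 1 animal. The age given for the treated mice on the sample records is 22 to 28 weeks, whereas the study's own account places the collection 12 to 13 months after dosing. The naive tissue is given as 8 to 12 weeks old on the records, and the promoter that drives GFP was not given in the sources used here.

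The kept cells numbered 2675 to 4555 in the GFP- libraries, with 4970758 to 8105756 UMIs, and 2266 to 3536 in the GFP+ libraries, with 8835197 to 16514669 UMIs, so the median cell held 842 to 1034 UMIs in the GFP- sort and 1058 to 3499 in the GFP+ sort. The naive libraries ranged from 987965 UMIs in microglia to 4804709 in astrocytes. Markers of the labelled types were present, with 94.7% to 97.8% of GFP- cells and 66.0% to 79.9% of GFP+ cells holding at least 3 of 10 microglia markers. The neuron sort did not match its label, since 96.2% of its cells held at least 3 oligodendrocyte markers and 0.52% at least 3 neuron markers. It is called the neuron sort below, and its values are those of cells with oligodendrocyte transcripts. The i.c.v. female's GFP- library had the highest share among GFP- libraries of cells holding at least 3 of 9 markers of CNS-associated macrophages (15.7%, against 4.41% to 9.96% in the other GFP- libraries and 37.8% to 57.2% in the GFP+ libraries). It also had the highest neutrophil transcript level of all treated libraries, 5970 CPM over 9 markers, against 61.6 to 987 CPM in the other GFP- libraries and 1.8 to 3275 CPM in the GFP+ libraries. A library sums all its cells, so fewer cells with a transcript and less of it per cell cannot be told apart in the sums.

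The members were grouped by their best known substrate into 13 classes. Mitochondrial carriers (37 members) and amino acid or peptide carriers (32 members) were the largest, followed by inorganic ion carriers (27), metal carriers (26) and nucleotide sugar carriers (19), with 12 sugar carriers, 8 for lipids and choline, 6 for vitamins, 6 for monocarboxylates and other organic acids, 5 for nucleosides, 9 for other organic ions, 3 for neurotransmitters and 4 genes that carry the name but are adaptors or neighbours rather than carriers. All members together took 0.732% to 0.871% of the UMIs of each GFP- library and 0.505% to 0.650% of each GFP+ library, so these ranges did not overlap. On the normalised scale explained next they did, with 5745 to 6774 normalised CPM in GFP+ libraries and 6681 to 7489 in GFP- libraries. Astrocytes gave 1.89% of their UMIs to the members, the neuron sort 0.837%, naive microglia 0.750% and blood 0.485%. Amino acid carriers made up 27.0% to 31.4% of the members' UMIs in the GFP+ libraries and 28.7% to 29.7% in the GFP- libraries, close to the 26.5% of naive microglia, whereas in astrocytes they made up 47.9%.

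To compare the sorts without the effect of a few very abundant genes on the library total, levels were also expressed as normalised CPM, in which each library's total is multiplied by its TMM factor (0.859 to 0.967 in the GFP+ libraries and 1.037 to 1.163 in the GFP- libraries). On that scale the summed level of the 12 sugar carriers was 318 ± 36.3 in GFP+ cells and 508 ± 49.1 in GFP- cells (SD, n = 4 libraries each), a ratio of 0.625. Slc2a5, described further on, made up most of this gap. Without it the other 11 sugar carriers summed to 302 ± 33.1 and 310 ± 28.1 normalised CPM, with overlap and a ratio of 0.975, and the median log2 fold change of the 12 was -0.05. Carriers of monocarboxylates and organic acids summed to 202 ± 33.1 against 290 ± 33.7 normalised CPM, but without Slc16a6, the 1 called member among 5 tested, to 64.0 ± 6.88 against 73.1 ± 9.89, with overlap. Both sums without a member were added after the values were seen. Vitamin carriers summed to 93.3 ± 14.4 against 130 ± 10.3 normalised CPM, and inorganic ion carriers to 627 ± 55.7 against 838 ± 53.1. In these 4 classes every GFP+ library lay below every GFP- library, as it did for the other organic ion carriers at a ratio of 0.820. Mitochondrial carriers lay the other way, with 1531 ± 58.1 normalised CPM in GFP+ cells against 1357 ± 72.6 in GFP- cells and no overlap. The median log2 fold change of the 36 tested was only 0.08. Slc25a3 and Slc25a5, described further on, were among the most abundant of these carriers and both rose. A sum without them was not taken, so the gap need not be shared by the class. The libraries of the sorts overlapped in the remaining 7 classes, including metal carriers, whose means were 850 and 851 normalised CPM.

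**Figure D1:**
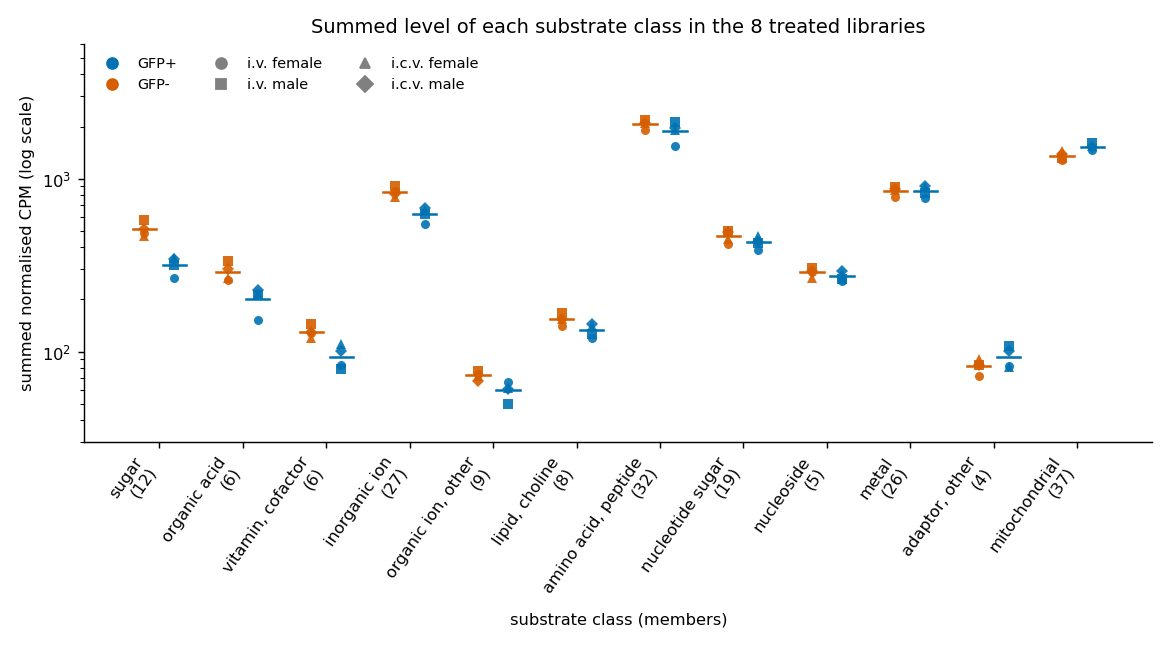
Summed level of the members of each substrate class (normalised CPM, log axis) in each of the 8 treated libraries, with 1 point per library, coloured by sort and shaped by mouse, and a line at each mean. The 3 neurotransmitter carriers, near 0 in these libraries, are not drawn. The sugar, organic acid, vitamin, inorganic ion and other organic ion classes show all 4 GFP+ points below all 4 GFP- points, and mitochondrial carriers show them above.

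The choice of scale sets some of these orders. On plain library CPM, without TMM factors, 10 of the 13 classes separated the sorts, and when every cell was thinned to at most 500 UMIs 4 did. For mitochondrial carriers the order turned on plain library CPM, with 1279 to 1487 in GFP+ libraries and 1445 to 1538 in GFP- libraries, which overlapped.

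Which carriers differed between MLCs and endogenous microglia of the same mice was asked gene by gene, with edgeR's quasi-likelihood test on summed UMIs over 11756 genes, and a call was made at a Benjamini-Hochberg adjusted p under 0.05. Of the 194 members, 175 held enough counts to be tested. In GFP+ cells 12 members were higher (6.86% of those tested, against a background of 16.6% of all genes tested) and 41 were lower (23.4%, against a background of 15.9%), and 122 were not called. In either direction, 30.3% of tested members were called, against 32.5% of all genes. The median log2 fold change was -0.13 over the members and 0.01 over all genes tested. The sorts did not overlap for 59 members, against a background of 34.7% of all genes.

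The members that reached the expression threshold in both sorts numbered 125, of which 10 were higher and 30 lower in GFP+ cells. The backgrounds for each count in this paragraph are 16.6% higher and 15.9% lower among all genes tested. A further 22 reached it in GFP- libraries alone, of which 10 were lower, and 3 in GFP+ libraries alone, of which 1 was higher. The rule itself favours a difference in those 25 genes, so their calls are a description. Members named below that reached it in GFP- libraries alone include Slc2a12, Slc12a4, Slc12a7, Slc24a3, Slc39a12 and Slc46a2. Slc1a5 reached it in GFP+ libraries alone. Of 44 members that reached the threshold in naive libraries alone, 25 were tested, with 1 called in each direction, and the other 19 members were too low in the treated libraries for a test. These included the GABA carriers Slc6a11 and Slc6a13.

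The balance of calls moved with the scaling. Without TMM factors the median of all genes shifted to -0.27, the calls of the members became 6 higher and 66 lower, and the share of higher calls among all genes fell from 51.1% to 16.8%. Leaving out the i.v. male's GFP- library left 29 of 53 calls (background 18.2% of all genes) and leaving out that of the i.c.v. male left 33 calls (background 21.6%). In the i.c.v. mice alone 20 members were called (background 8.69% of all genes) and in the i.v. mice alone 44 (background 27.0%). With every cell thinned to at most 500 UMIs 29 were called (background 13.5%). With the mouse as a block, 48 members were called (background 27.4% of all genes), 9 higher and 39 lower.

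**Figure D2:**
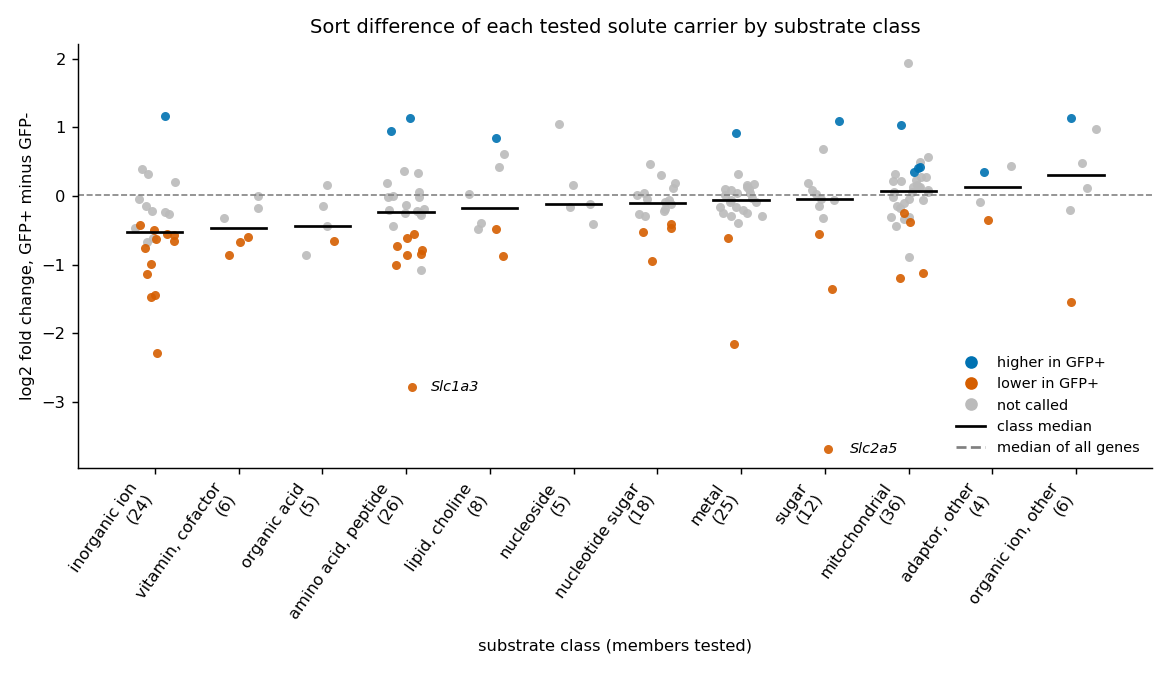
log2 fold change of each tested member, GFP+ over GFP- (log2 scale, 1 point per gene), by substrate class, with called members in colour, uncalled members in grey, the class median as a bar and the median of all genes as a dashed line. Slc2a5 is the lowest point at -3.68, inorganic ion carriers lie mostly below 0 with a median of -0.52, and mitochondrial carriers spread on both sides with a median of 0.08.

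Among sugar carriers, 12 were tested, 3 were lower (against 15.9% of all genes) and 1 was higher (against 16.6%) in GFP+ cells. In either direction, the share called was close to the 32.5% of all genes. Slc2a5, known as GLUT5, a carrier of fructose, lies on chr4:150119283-150144169 of mm10. Its normalised CPM in GFP- cells was 213 and 246 in the i.v. mice and 135 and 201 in the i.c.v. mice (female before male, as in all such lists below), and in GFP+ cells 13.0 and 6.86 in the i.v. mice and 29.3 and 13.0 in the i.c.v. mice. Each GFP- library was thus far above each GFP+ library, and the fitted level was 12.8-fold higher in GFP- cells (log2 fold change -3.68 ± 0.40 SE, adjusted p = 0.000613), the largest change of any tested member in either direction. Across all other processing settings its log2 fold change lay between -4.53 and -3.00, with a call in each.

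The remaining sugar carriers changed less. Slc37a2, an exchanger of glucose 6-phosphate and phosphate in the endoplasmic reticulum, fell by 0.55 on the log2 scale (adjusted p = 0.0322), but its call was lost in 5 of 8 fits that left out 1 library and with thinned cells (adjusted p = 0.200). Slc2a12 fell by 1.35 (adjusted p = 0.00273) at no more than 10.2 normalised CPM. Slc2a6, a lysosomal hexose carrier of macrophages, was higher in GFP+ cells, with 12.1 to 20.3 normalised CPM against 3.96 to 11.2 (log2 fold change 1.10, adjusted p = 0.0250), and lost its call with the mouse as a block (adjusted p = 0.0574). The glucose carriers Slc2a1 (GLUT1, log2 fold change -0.04) and Slc2a3 (GLUT3, 0.69, adjusted p = 0.0859) were not called, and both overlapped between the sorts.

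Amino acid and peptide carriers gave 8 lower (30.8%, against 15.9% of all genes) and 2 higher (7.69%, against 16.6%) members among 26 tested. Slc1a3, the glutamate and aspartate carrier GLAST, had 103 and 93.4 normalised CPM in GFP- cells of the i.v. mice and 81.1 and 85.0 in those of the i.c.v. mice, and 22.5, 9.81, 13.1 and 6.76 in the GFP+ libraries in the same order. The groups were well apart, and the level was 6.85-fold higher in GFP- cells (log2 fold change -2.78 ± 0.32, adjusted p = 0.000699). Astrocytes express Slc1a3 strongly. The summed astrocyte marker list ranged from 47.3 to 113 CPM in GFP- libraries and from 38.6 to 80.4 CPM in GFP+ libraries. Without the cells that held markers of other types the log2 fold change of Slc1a3 was -3.45. That filter cannot remove astrocyte RNA captured with other cells, and the part of astrocyte transcripts in this difference was not tested. Slc1a2, the glutamate carrier GLT-1 that is typical of astrocytes, stood at 6.41 to 16.3 normalised CPM in GFP- libraries and 5.86 to 19.8 in GFP+ libraries, with no call.

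Slc36a1, which exports small amino acids from lysosomes with protons, had 45.1 to 72.1 normalised CPM in GFP- cells and 27.3 to 29.9 in GFP+ cells, a 2.00-fold difference (adjusted p = 0.00251). Slc38a9, the arginine sensor of the lysosome, fell by 0.56 (adjusted p = 0.0127) and Slc15a4, an endolysosomal carrier of histidine and peptides, by 0.61 (adjusted p = 0.00709). The related Slc15a3 was not called (0.19, adjusted p = 0.391) and stood at 217 to 353 normalised CPM in all 8 libraries. Slc7a8 (LAT2), which exchanges neutral amino acids, had 186, 204, 142 and 174 normalised CPM in GFP- cells and 106, 88.9, 110 and 122 in GFP+ cells (-0.73, adjusted p = 0.00584). Slc7a5 (LAT1) fell by 0.84 (adjusted p = 0.00508) at a lower level of 7.46 to 20.1. Their shared partner subunit Slc3a2 was not lower, at 308 to 431 normalised CPM in GFP+ cells and 267 to 321 in GFP- cells (0.34, adjusted p = 0.0901). Slc38a10 fell by 0.87 (adjusted p = 0.00139), from 95.5 to 104 normalised CPM in GFP- cells to 43.7 to 62.0.

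Slc38a6, a member of the sodium-coupled neutral amino acid family, rose. It had 40.4 and 40.5 normalised CPM in GFP- cells of the i.v. mice and 53.4 and 39.4 in those of the i.c.v. mice, against 66.8, 87.6, 93.6 and 88.3 in GFP+ cells. The GFP+ libraries were higher in 4 of 4 mice, and the rise was 1.93-fold (log2 fold change 0.95 ± 0.14, adjusted p = 0.00216), with a call under every other setting tried. Slc1a5 (ASCT2), a glutamine and alanine exchanger, was also called (1.14, adjusted p = 0.0327), but its GFP+ values of 13.0 and 18.9 in the i.v. mice stood apart from 7.15 and 6.26 in the i.c.v. mice, and its call was lost with the mouse as a block (adjusted p = 0.0867), with thinned cells (adjusted p = 0.0796) and in 5 of 8 fits without 1 library. Slc38a2, Slc7a7, Slc7a11 and Slc6a6, for neutral amino acids, for cationic and neutral amino acids, for cystine and for taurine, were not called and overlapped between sorts.

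Inorganic ion carriers held the highest count of lower members, 12 of 24 tested (against 15.9% of all genes), with 1 higher (against 16.6%). The lower members include Slc12a4, Slc12a7 and Slc24a3, which among treated libraries reached the expression threshold in GFP- libraries alone. Their calls are a description, as stated above, so the count for this class is in part a description too. Slc12a2 (NKCC1), which brings sodium, potassium and chloride into cells, had 108, 129, 84.2 and 118 normalised CPM in GFP- cells and 39.5, 34.3, 40.1 and 47.2 in GFP+ cells. No GFP+ library reached the lowest GFP- library, and the difference was 2.72-fold (log2 fold change -1.45 ± 0.15, adjusted p = 0.000477). Slc12a9, a member of the same cation-chloride family, had 88.6, 81.1, 62.0 and 69.9 against 37.9, 28.8, 37.6 and 32.5 normalised CPM (-1.14 ± 0.14, adjusted p = 0.000899). The potassium-chloride carriers Slc12a4 and Slc12a7 fell as well, by 0.65 and 0.57 on the log2 scale (adjusted p = 0.0106 and 0.0316).

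Calcium, proton and anion carriers went partly the same way. The sodium-calcium exchanger Slc8a1 had 61.1 to 92.2 normalised CPM in GFP- cells and 32.7 to 41.1 in GFP+ cells (-0.99, adjusted p = 0.00159, and -0.53 with adjusted p = 0.0550 in thinned cells), and the potassium-dependent exchanger Slc24a3 had 10.5 to 18.0 against 2.35 to 3.87 (-2.29, adjusted p = 0.000477). The endosomal sodium-proton exchanger Slc9a9 was not called (0.21) at 92.2 to 134 normalised CPM. Slc26a11, a sulfate and anion carrier, was the exception in its class, with 9.07, 10.2, 19.6 and 14.2 normalised CPM in GFP- cells and 20.9, 29.1, 30.8 and 39.5 in GFP+ cells. Its groups did not overlap, and it rose 2.25-fold (1.17 ± 0.26, adjusted p = 0.0108), the largest rise among called members that reached 20 normalised CPM.

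Few metal carriers were called. Of 25 tested, 1 rose and 2 fell, 12.0% in all against the background of 32.5%. Slc11a1 (NRAMP1), which pumps iron and manganese out of phagosomes, stood at 170 to 189 normalised CPM in GFP+ cells and 153 to 186 in GFP- cells, with a log2 fold change of 0.04. Slc40a1 (ferroportin), the iron exporter, had 101 to 185 against 123 to 177, with a log2 fold change of -0.04. Slc48a1 (HRG1), which moves heme out of the phagolysosome, was the metal carrier that rose, with 50.1, 46.1, 36.1 and 39.6 normalised CPM in GFP+ cells and 17.3, 18.5, 28.9 and 25.8 in GFP- cells. GFP+ cells were higher in each mouse, 1.90-fold in the fit (0.92, adjusted p = 0.00640), and the groups were nearer in the i.c.v. mice (0.47 in these mice alone, not called). With cells thinned to 500 UMIs the call was lost (adjusted p = 0.0868). The zinc carrier Slc39a12 fell by 2.15 (adjusted p = 0.000943) at 8.47 to 14.8 normalised CPM in GFP- cells and 1.54 to 3.11 in GFP+ cells.

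Mitochondrial carriers gave 4 higher (11.1%, against 16.6% of all genes) and 4 lower (11.1%, against 15.9%) members among 36 tested. Slc25a10, the dicarboxylate carrier, had 22.9, 23.2, 29.2 and 26.2 normalised CPM in GFP+ cells against 9.61, 9.51, 18.6 and 11.5 in GFP- cells (1.03, adjusted p = 0.00780). The phosphate carrier Slc25a3 rose by 0.42 (adjusted p = 0.0249), the ADP/ATP carrier Slc25a5 by 0.34 (adjusted p = 0.0289) and Slc25a39, which imports glutathione, by 0.41 (adjusted p = 0.0243). Slc25a3 and Slc25a5 were among the most abundant members in these cells, with 351 to 423 and 323 to 347 normalised CPM in GFP+ cells and 251 to 313 and 241 to 288 in GFP- cells. Their calls were small and not stable, since leaving out 1 library ended that of Slc25a3 in 4 of 8 fits, of Slc25a39 in 4 of 8 and of Slc25a5 in 5 of 8, no scaling beyond the library total ended all of them, and the mouse block ended Slc25a3 (adjusted p = 0.0553) and Slc25a5 (adjusted p = 0.0639). With cells thinned to 500 UMIs Slc25a3, Slc25a5 and Slc25a39 lost their calls too, and the direction of Slc25a5 turned (-0.13). Slc25a5 has near-identical processed copies in the genome, which makes its counts less certain.

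Of the lower mitochondrial carriers, the one with the highest level in GFP- cells was Slc25a37 (mitoferrin-1), which imports iron into mitochondria. It had 108, 88.3, 80.8 and 74.2 normalised CPM in GFP- cells and 31.9, 31.4, 63.3 and 34.7 in GFP+ cells, with the i.c.v. female's GFP+ library nearest to the GFP- range (-1.12 ± 0.23, adjusted p = 0.00809). Slc25a29, a carrier of basic amino acids, fell most, by 1.19 (adjusted p = 0.0166). It was low, at 2.30 to 3.22 library CPM in GFP- cells and 0.64 to 1.47 in GFP+ cells. Slc25a30 and Slc25a45 fell by 0.38 and 0.25. The other 28 tested mitochondrial carriers were not called. They included the ADP/ATP carrier Slc25a4 (0.32, adjusted p = 0.0560) and Slc25a24, whose GFP+ values differed by route and are given further on.

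Among the smaller classes, the choline carriers moved in opposite directions. Slc44a1 (CTL1) rose 1.79-fold, from 17.1, 21.7, 29.9 and 21.6 normalised CPM in GFP- cells to 34.4, 40.2, 41.6 and 46.4 in GFP+ cells (0.84, adjusted p = 0.00666). Slc44a2 (CTL2) fell from 52.3, 73.9, 62.6 and 69.5 to 27.8, 30.5, 46.8 and 36.6 (-0.87, adjusted p = 0.00698). Neither pair of groups overlapped, and neither call was lost when any library was left out, although with cells thinned to 500 UMIs that of Slc44a2 was (adjusted p = 0.0764). Slc22a17, a receptor for lipocalin-2 that binds iron-laden siderophores, fell from 22.9 to 37.0 normalised CPM in GFP- cells to 5.79 to 15.1 in GFP+ cells (-1.54, adjusted p = 0.00367). In the vitamin class, Slc46a1, the proton-coupled folate carrier, fell by 0.66 (adjusted p = 0.0156, and 0.0545 without the i.v. male's GFP- library), its relative Slc46a2 by 0.86 (adjusted p = 0.0231) and the ascorbate carrier Slc23a2 by 0.60 (adjusted p = 0.0201).

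Slc16a6, of the monocarboxylate family, fell by 0.66 (adjusted p = 0.0290), with 180 to 266 normalised CPM in GFP- cells and 94.5 to 167 in GFP+ cells, but lost its call in 3 of 8 fits that left out 1 library and with thinned cells (adjusted p = 0.401). The lactate carriers Slc16a1 (-0.87, adjusted p = 0.0578) and Slc16a3 were not called, although Slc16a1 was called with the mouse as a block (adjusted p = 0.0299). None of the 5 nucleoside carriers was called, against 32.5% of all genes. Among them, the lysosomal carrier Slc29a3 stood at 180 to 233 normalised CPM in all 8 libraries, with a log2 fold change of -0.15. Of 18 tested nucleotide sugar carriers, which load the Golgi apparatus, 4 fell (22.2%, against 15.9% of all genes) and none rose (against 16.6%). Slc4a1ap, an adaptor and no carrier, rose by 0.34 (adjusted p = 0.0244), and its call was lost in 4 of 8 fits without 1 library and with the mouse as a block (adjusted p = 0.0606).

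**Figure D3:**
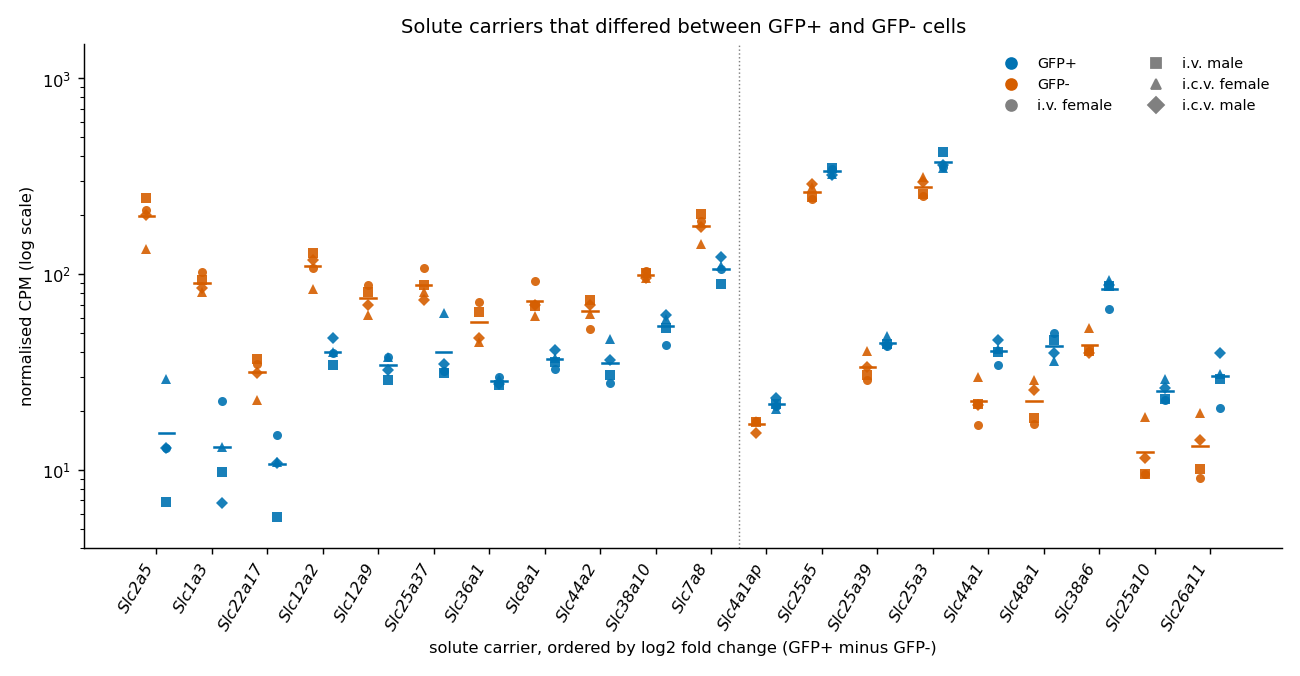
Normalised CPM (log axis) of the members that were called between sorts with at least 20 normalised CPM in the higher sort and the same direction in 4 of 4 mice, lower in GFP+ cells to the left of the dotted line and higher to its right, with 1 point per library, shaped by mouse, and a line at each mean. The widest gap is that of Slc2a5, at 135 to 246 in GFP- cells and 6.86 to 29.3 in GFP+ cells, and the GFP- point of the i.c.v. female often lies nearest to the GFP+ points among higher members.

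Marker levels moved with the sorts beside these results. The microglia marker list summed to 11203 to 16210 CPM in GFP- libraries and 5476 to 9884 CPM in GFP+ libraries, with none of its 10 markers at 0 in any treated library. The list of 9 markers of CNS-associated macrophages summed to 2279 to 3045 CPM in GFP+ libraries and 927 to 1784 CPM in GFP- libraries. Their part in the differences of the carriers was not tested.

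The share of cells with a transcript was counted as well. Because GFP+ cells held more UMIs, each cell was thinned to at most 500 UMIs before counting, and a share is a mean over the 4 libraries of a sort. Cells with fewer than 500 UMIs were left out of these shares, which in naive microglia were 792 of 1274 kept cells. Slc2a5 was found in 12.2% ± 2.34 of GFP- cells and in 0.661% ± 0.322 of GFP+ cells, with no overlap (p = 0.0286, two-sided exact permutation test of libraries, the smallest that 4 against 4 allows). At the same depth it was found in 16.6% of naive microglia, and in 0 of 1146 astrocytes, which allows a share of up to 0.262%, in 0 of 334 blood cells and in 0 of 482 cells of the neuron sort. Slc1a3 was found in 4.84% of GFP- cells and 0.503% of GFP+ cells, and in 59.5% of astrocytes. Slc12a2 was found in 6.91% against 2.57%, Slc38a6 in 3.01% against 7.75% and Slc26a11 in 0.760% against 2.64% of GFP- and GFP+ cells. The order went against the fold change for Slc25a5 (10.3% of GFP- and 8.98% of GFP+ cells) and Slc25a39 (1.59% and 1.55%). Without thinning the order of Slc7a8 and Slc38a10 was the other way.

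The promoters of members were searched for a few short motifs in the 250 bases before each start site in RefSeq annotation (GRCm38.p6). The sequence CACGTG, the palindromic core of the CLEAR element read by TFEB and related factors on lysosomal genes and also of other E-box sites, was present in 11.4% of 202 windows of members and in 6.02% of all 32851 windows. Windows of members lower in GFP+ cells held it in 4 of 39 (10.3%), and windows of higher members in 0 of 10. The motif TGATGCAA, of amino acid response elements, was found in 1.49% of member windows and 0.791% of all windows, and GAGGAAGT, of PU.1 sites, in 1.98% and 2.44%. Each motif was searched on both strands, and a match is a description and not a site. Slc36a1 and Slc12a9 are shown because both fell in GFP+ cells in every setting tried and both hold CACGTG, and Slc2a5 is shown as the member with the largest change. The upstream sequence that no annotated exon covers is chr11:55204090-55204339 on the plus strand for Slc36a1, chr5:137333598-137333832 on the minus strand for Slc12a9 and chr4:150119094-150119235 on the plus strand for Slc2a5 (mm10, 5′ to 3′). Capitals mark CACGTG, whose first base lies at position -31 from the start site in Slc36a1 and at -106 in Slc12a9, and none of the 3 motifs is in the Slc2a5 window.
Slc36a1: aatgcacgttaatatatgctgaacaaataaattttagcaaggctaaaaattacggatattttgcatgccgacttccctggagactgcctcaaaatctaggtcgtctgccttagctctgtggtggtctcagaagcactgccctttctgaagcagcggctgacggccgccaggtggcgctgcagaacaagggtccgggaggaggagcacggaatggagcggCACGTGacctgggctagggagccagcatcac
Slc12a9: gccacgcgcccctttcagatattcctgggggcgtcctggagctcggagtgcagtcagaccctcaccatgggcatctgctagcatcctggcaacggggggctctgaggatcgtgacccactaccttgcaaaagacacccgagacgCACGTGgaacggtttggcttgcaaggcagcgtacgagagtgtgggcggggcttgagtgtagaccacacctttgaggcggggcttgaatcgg
Slc2a5: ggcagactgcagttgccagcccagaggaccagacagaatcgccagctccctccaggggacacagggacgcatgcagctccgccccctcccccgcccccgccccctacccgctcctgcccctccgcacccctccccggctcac

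Whether the route of dosing changed the carriers was asked within each sort, from a fit of all 4 route and sort groups with 2 libraries in each. In GFP+ cells 4 members were called (background 2.36% of all genes tested), 3 higher after i.v. dosing (background 2.19%) and 1 lower (background 0.179%). An unadjusted p under 0.05 was found for 34 of 175 members and for 1877 of 11756 genes. Slc25a24, a calcium-regulated mitochondrial carrier of ATP-Mg and phosphate, had 8.78 and 8.16 normalised CPM in GFP+ cells of the i.v. mice and 1.06 and 2.29 in those of the i.c.v. mice (log2 fold change 2.31 ± 0.42, adjusted p = 0.0297). Slc1a5 had 13.0 and 18.9 against 7.15 and 6.26 (1.24 ± 0.23, adjusted p = 0.0318), and Slc27a3, of the fatty acid transport family, 1.66 and 4.85 against 0.352 and 0.0994 (3.77 ± 0.76, adjusted p = 0.0453). The zinc and manganese carrier Slc39a8 went the other way, with 6.91 and 6.74 against 12.1 and 12.3 (-0.84 ± 0.17, adjusted p = 0.0463). All 4 are low in these cells. Within each the 2 routes did not overlap, but the genes were called from these same libraries, so this adds no support. 

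These calls rest on few libraries. None of the 4 calls was left without the i.v. male's GFP+ library, of the i.c.v. female or of the i.c.v. male. Slc39a8 lost its call in 8 of 8, Slc27a3 in 7 of 8, Slc1a5 in 6 of 8 and Slc25a24 in 4 of 8 fits without 1 library. Monocyte and neutrophil transcripts moved with the route in the GFP+ sort. The list of 9 monocyte markers summed to 202 to 295 CPM in the i.v. libraries and 17.4 to 19.2 CPM in the i.c.v. libraries, where 4 to 6 of its markers were at 0, and the list of 9 neutrophil markers to 1635 to 3275 CPM against 1.8 to 7.8 CPM. In naive blood Slc1a5 stood at 34.6 CPM and Slc25a24 at 28.1 CPM, at least 3-fold above any other naive library and the mean of each treated sort. The GFP+ mean of Slc1a5 over both routes was 10.1 CPM, and its highest GFP+ library was at 16.2 CPM. Without the cells that held markers of other types, Slc25a24 (2.18), Slc1a5 (1.28) and Slc27a3 (3.77) were still called. Slc39a8 was not (-0.81, adjusted p = 0.0537). That filter kept cells with monocyte markers, so it cannot show the part of monocytes. The part of blood cell transcripts in these differences was not tested.

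**Figure D4:**
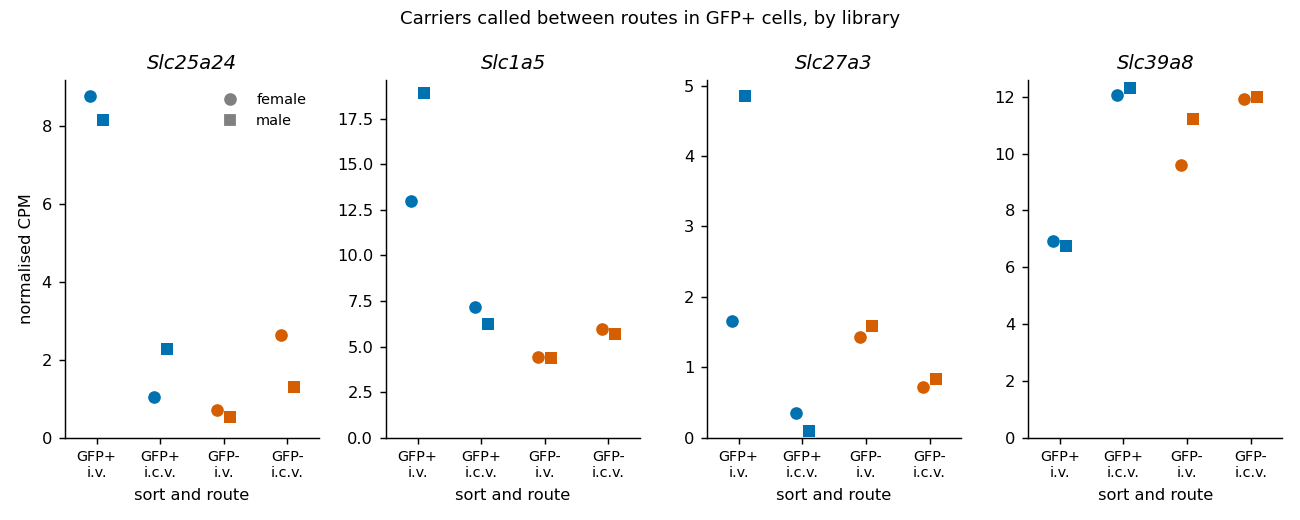
Normalised CPM of the 4 members called between routes in GFP+ cells, in GFP+ cells (blue) and GFP- cells (orange) split by route, with 1 point per library (circle, female; square, male). Slc25a24 is at 8.16 to 8.78 in i.v. GFP+ libraries and at no more than 2.62 in the others, and Slc39a8 is lower in the i.v. GFP+ libraries than in all others.

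In GFP- cells no member was called between routes, and no gene at all (0 of 11756, background 0.0%), while 12 members and 974 genes had an unadjusted p under 0.05, and DESeq2 called 0 members and 66 genes. The members with the smallest p were Slc36a1 (72.1 and 63.9 normalised CPM after i.v. and 45.1 and 47.3 after i.c.v. dosing, log2 fold change 0.56, adjusted p = 0.434), Slc48a1 (17.3 and 18.5 against 28.9 and 25.8, -0.61, adjusted p = 0.434) and Slc2a6 (4.98 and 3.96 against 11.2 and 7.01, -1.04, adjusted p = 0.505). With 2 libraries a route, a simulated 2-fold change in GFP- cells was recovered in 24.5% of genes and a 4-fold change in 89.0%. Whether the sort difference itself depended on route was tested as an interaction, and Slc25a24 was the only member called (3.98 ± 0.72, adjusted p = 0.0372), against a background of 1.61% of all genes, 1.51% upward and 0.0936% downward. It was higher in GFP+ than in GFP- cells in both i.v. mice (8.78 against 0.712 and 8.16 against 0.528) but not in both i.c.v. mice (1.06 against 2.62 and 2.29 against 1.31). This call was lost in 6 of 8 fits without 1 library and without cells holding markers of other types (adjusted p = 0.0847), and 4 members were called with the mouse as a block.

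The naive libraries place the members by cell type, with 1 library a type, so they carry no test, and their 95% exact Poisson intervals cover counting error only. Values in these paragraphs are plain library CPM. A member was taken as standing out in a type when its CPM there was at least 3-fold the highest of the other types, counting the mean of each treated sort as a type. Astrocytes had 31 such members, the neuron sort 7, blood 3 and the GFP- sort 1, and naive microglia and the GFP+ sort had none. With every cell thinned to at most 500 UMIs astrocytes had 30, the neuron sort 8, blood 6 and the GFP- sort 0, so the small counts depend on depth. Naive microglia and the GFP- sort both hold microglia, so a carrier at similar levels in the 2 cannot stand out in either. Slc2a5 is such a case, at 283 CPM in naive microglia, 221 CPM in the GFP- sort and 0 CPM in blood.

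Astrocytes stood out for the carriers of transmitter amino acids. Slc1a2 was at 3790 CPM (interval 3736 to 3846), 91.3 times the next type, and Slc1a3 at 2559 CPM. Slc7a10, an alanine, serine and cysteine exchanger, had 534 CPM (514 to 556), 132 times the 4.05 CPM of naive microglia. The GABA carrier Slc6a11 (495 CPM, 475 to 515), the glutamine carrier Slc38a3 (151 CPM, 140 to 163), the bicarbonate carrier Slc4a4 (1307 CPM), the cystine carrier Slc7a11 (470 CPM) and the manganese exporter Slc30a10 (103 CPM, 94.3 to 113) were also highest there. Low values of such genes in the other libraries can be free RNA, and the 41.5 CPM of Slc1a2 in naive microglia stood beside 220 CPM of the astrocyte marker list.

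In the neuron sort the members furthest above the other types were Slc24a2, a sodium, calcium and potassium exchanger (406 CPM, 386 to 427), Slc44a1 (537 CPM, 514 to 561), Slc12a2 (723 CPM, 696 to 751), Slc48a1 (673 CPM, 647 to 700) and the creatine carrier Slc6a8 (59.2 CPM, 51.6 to 67.6). Slc44a1 and Slc48a1 are thus members that rose in GFP+ cells and Slc12a2 a member that fell, and the oligodendrocyte marker list summed to 89.3 to 365 CPM in GFP- libraries and 65.3 to 145 CPM in GFP+ libraries, against 56969 CPM in the neuron sort. In blood, no member with at least 50 CPM was more than 1.19 times the next type, and among those highest by ratio were Slc30a5 (55.5 CPM, 46.9 to 65.3), Slc25a5 (423 CPM, 398 to 448), Slc44a2 (89.7 CPM, 78.6 to 102) and Slc6a6 (159 CPM, 144 to 174). The 3 members that stood out in blood, Slc1a5, Slc25a24 and the nucleoside carrier Slc28a2 (30.8 CPM), were all below that level.

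Among the members named for naive microglia, Slc2a5 had 283 CPM (251 to 319), 1.28 times the mean of the GFP- sort. Slc39a1, a zinc importer, had 74.9 CPM (58.8 to 94.0), the nucleoside carrier Slc29a1 100.2 CPM (81.4 to 122), Slc12a9 126 CPM (104 to 150) and the oxoglutarate carrier Slc25a11 111 CPM (91.5 to 134), each 1.32 to 1.59 times the GFP- mean. With a stricter barcode filter (500 genes, 5% mitochondrial UMIs) Slc39a1 was at 40.0 CPM and Slc2a5 at 148 CPM, both below the GFP- means of 47.2 and 221 CPM under the usual filter, and with thinned cells Slc2a5 was at 428 CPM. The same filter put Slc6a11 at 323 CPM in astrocytes, and thinning put Slc44a2 at 147 CPM in blood. Slc2a5 and Slc12a9, both lower in GFP+ than in GFP- cells, were thus detected in naive microglia as well.

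**Figure D5:**
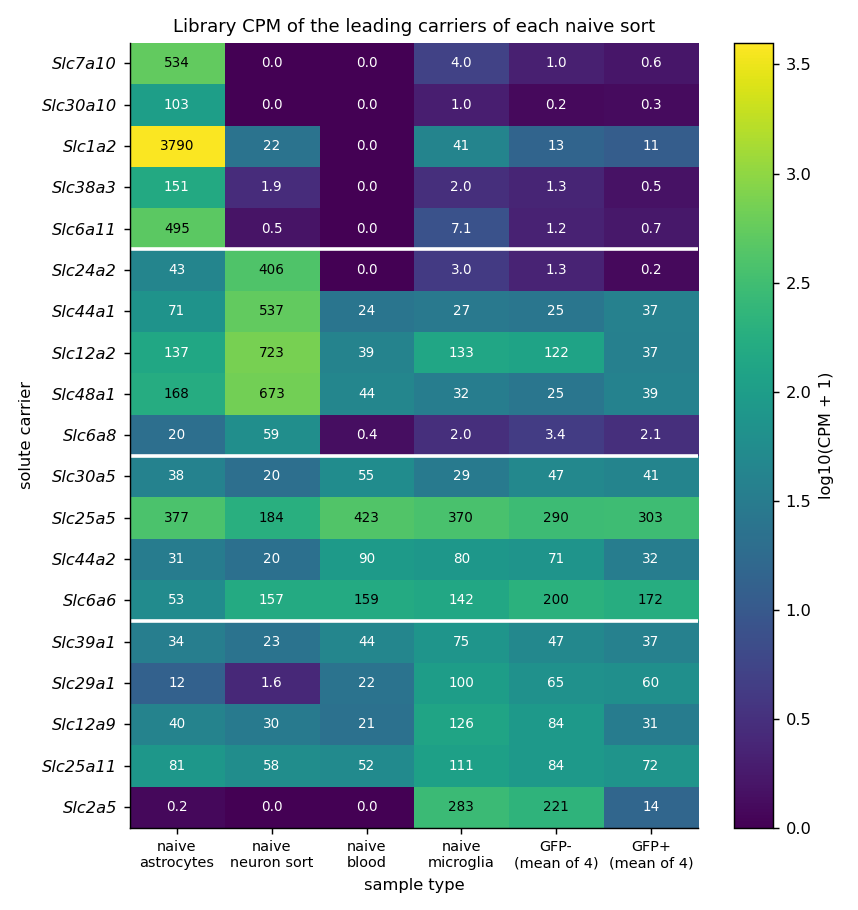
Library CPM (printed in each cell) of the leading members of each naive library, in the 4 naive libraries and as the mean of the 4 libraries of each treated sort, coloured by log10(CPM + 1). Astrocytes lead for Slc1a2 at 3790 CPM and Slc7a10 at 534 CPM, the neuron sort for Slc12a2 at 723 CPM, and Slc2a5 is at 283 CPM in naive microglia and 221 CPM in the GFP- sort.

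Members were also placed by whether naive microglia or blood, with 1 library each, had the higher CPM. Of 41 members lower in GFP+ cells, 31 had a higher CPM in naive microglia than in blood (75.6%, against 84.0% of all genes with that call). Of 12 higher members, 5 did (41.7%, against 31.7% of all genes with that call), and of 122 members not called, 80 did (65.6%, against 58.4%).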

How the data were processed

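The deposited matrices hold raw UMI counts per gene and barcode, made by the authors with Cell Ranger (3.1.0 per the file headers) on mm10. Barcodes with 200 or more genes and no more than 10% of UMIs from mitochondrial genes were retained and their counts summed per library. No doublet caller was run, and an alternative left out the top 5% of cells by UMIs. Sums were tested with edgeR 4.0.16 (TMM factors, filterByExpr by sort, quasi-likelihood test, Benjamini-Hochberg over 11756 genes). The sort comparison used GFP+ against GFP- libraries, and the route and interaction comparisons a fit of the 4 groups. Replicates of a group are separate mice. Both sorts of a mouse come from the same animal, so a fit with the mouse as a block was run. Deviations of the sorts of 1 mouse from their group means correlated at 0.435, -0.094, -0.22 and 0.193 over 8500 genes. DESeq2 1.42.0 and other filters, scalings and left-out libraries were alternatives. Cells were thinned with seed 1 to 500 or 1000 UMIs for shares of cells, and cells with fewer UMIs were left out of the shares. With simulated counts, 79.5% of 2-fold and 95.0% of 4-fold changes between sorts were recovered.

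Members were classed by best known substrate. Named between sorts were called members with at least 20 normalised CPM in the higher sort and the same direction in 4 of 4 mice, the 12 largest in each direction. Named between routes were the 5 called members with the smallest adjusted p, or the 3 smallest p where none was called. Named for each naive library were the 5 members of at least 50 CPM with the largest ratio to the next type. In addition 39 textbook carriers were named, of which 38 were members. Some members that these rules name are not reported here. Other members given with values were chosen after their values were seen. The members and lists were chosen with earlier results of these data known. Gene positions are those of GENCODE M21 and upstream windows those of RefSeq (GRCm38.p6), with 152 members matched.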

Additional observations from a re-analysis of the deposited data

Results flagged for a closer look

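In 7 of 118 groups of 4 libraries, over the 59 named members that were tested, the highest or lowest library lay further from the others than Dixon's 95% critical value, which chance gives in about 1 of 20 groups. In GFP+ cells these were Slc25a3 in the i.v. male (423 normalised CPM, next 361), Slc25a37 in the i.c.v. female (63.3, next 34.7), Slc7a7 in the i.c.v. female (81.0, next 48.1), Slc30a5 in the i.v. female (34.7, next 48.2) and Slc7a5 in the i.v. female (7.46, next 10.6). In GFP- cells they were Slc38a6 in the i.c.v. female (53.4, next 40.5) and Slc4a1ap in the i.c.v. male (15.6, next 17.6).

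The sort difference of Slc25a24 differed between routes by a log2 difference of 3.98 (edgeR interaction term, adjusted p = 0.0372).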

How the results depend on the processing

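Between sorts 53 members were called, 29 with every cell thinned to at most 500 UMIs, 20 in the i.c.v. mice alone and 29 to 58 when 1 library was left out (29 without the i.v. male's GFP- library and 33 without that of the i.c.v. male). Without the i.v. male's GFP- library Slc16a6, Slc1a5, Slc25a3, Slc25a39, Slc25a5, Slc2a6, Slc37a2, Slc46a1 and Slc4a1ap lost their calls, without the i.v. male's GFP+ library these except Slc25a39 and Slc46a1, and without the i.c.v. male's GFP- library these except Slc25a5 and Slc46a1. The i.v. female's GFP- library ended Slc1a5, Slc25a3, Slc25a39, Slc25a5 and Slc2a6, that mouse's GFP+ library Slc1a5, Slc25a5 and Slc37a2, the i.c.v. male's GFP+ library Slc25a5 and Slc4a1ap, and the i.c.v. female's GFP+ library Slc25a39 and Slc37a2, with adjusted p of at most 0.0981. The other settings stayed within 1.5 times, with 48 for the mouse as a block. That block ended the calls of Slc1a5, Slc25a3, Slc25a5, Slc2a6 and Slc4a1ap and made one of Slc16a1, and it changed no other call of a member reported here. Between routes in GFP+ cells 4 were called, 0 without the top 5% of cells by UMIs or with thinned cells, 1 from GFP+ libraries alone and 0 to 3 when 1 library was left out. In GFP- cells 0 were called in every setting. For the interaction 1 was called, 2 with all barcodes, 0 with a stricter barcode filter (500 genes, 5% mitochondrial UMIs), without cells with markers of other types, without the top 5% of cells or thinned, 3 by DESeq2, 8 without a filter on low counts, 4 with the mouse as a block and 0 to 2 when 1 library was left out. Separated substrate classes numbered 10 on library CPM, 4 with thinned cells and 6 with TMM factors, 2 alternatives chosen after seeing the data, as was the fit without TMM factors. The number of members stayed within 1.5 times at thresholds of 5 and 20 CPM. Reversed were the log2 fold change of Slc25a5 with thinned cells (-0.13, adjusted p = 0.740) and the share differences (percent of cells, GFP+ minus GFP-) of Slc38a10 (0.03) and Slc7a8 (1.10) at the cells' own depth and of Slc4a1ap (-0.205) at 1000 UMIs. Why these moved was not tested. Over 1269 values of 62 fold changes, each of a named member in 1 comparison, 1114 kept their side of the threshold. Those called among them also kept their direction. Leaving out cells with markers of other types was not run for the naive libraries, of which few cells would remain.

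Depth limits low members most. Naive types and routes rest on 1 and 2 libraries a group, a simulated 2-fold route difference was recovered in 43.5% of genes in GFP+ cells, and 2-fold interactions in 0.0%.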

Other observations

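Carriers that bear other symbols were examined beside the members, from a list of 32 genes (mitochondrial uncoupling and sideroflexin carriers, heme exporters, lysosomal spinster carriers, organic anion carriers of the Slco family and partner proteins), of which 30 were tested. In GFP+ cells 4 were higher and 4 lower (backgrounds 16.6% and 15.9% of all genes), and 22 were not called, with a median log2 fold change of -0.01. Ucp2, a mitochondrial carrier of metabolites, had 482, 543, 551 and 565 normalised CPM in GFP+ cells and 266, 292, 394 and 361 in GFP- cells (0.71, adjusted p = 0.00751). The heme exporter Flvcr1 rose by 0.94 (adjusted p = 0.0223), and Bsg, the partner that brings lactate carriers to the membrane, by 0.33 (adjusted p = 0.0215). Among organic anion carriers Slco2b1 fell from 381 to 462 normalised CPM in GFP- cells to 198 to 322 in GFP+ cells (-0.74, adjusted p = 0.0119) and Slco4a1 from 10.4 to 22.4 to 2.83 to 5.39 (-1.94, adjusted p = 0.00286). Spns2, which exports sphingosine 1-phosphate, fell by 1.79 (adjusted p = 0.000942), and Spns1 by 0.41 (adjusted p = 0.0474).

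Between routes in GFP+ cells, Emb, another partner of lactate carriers, had 54.4 and 77.1 normalised CPM in the i.v. mice and 1.52 and 2.88 in the i.c.v. mice (log2 fold change 4.86, adjusted p = 0.00271), and Slco3a1 had 3.80 and 4.61 against 0.352 and 0.596 (3.08, adjusted p = 0.0116). These moved with the monocyte and neutrophil marker lists, whose part was not tested.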
